A study of Mus musculus with 11 samples.

Results

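The insulin-like growth factor (IGF) system was followed in ovaries of newborn mice that lack Sohlh1 or Sohlh2. The genes were the ligand Igf1, the receptors Igf1r and Insr, and the binding protein genes Igfbp2 to Igfbp7. They were chosen by name, with earlier results of these data known. Every probe whose annotated symbol was one of these 9 genes was taken. This gave 24 of the 45281 probes of the array and 9 of the 19057 genes it names. All 9 genes had at least 1 probe above background on 3 or more arrays, and 17 of the 24 probes passed that filter. Expression was read on Illumina MouseWG-6 v2 bead arrays, and each sample had 1 array. The groups were Sohlh1 knockout (Sohlh1 KO, n = 4), Sohlh2 knockout (Sohlh2 KO, n = 3) and wild type (n = 4), all ovaries of newborn mice, strain C57BL/6/129S6/SvEv. Both deleted genes code for germ cell transcription factors of the basic helix-loop-helix class. The labels give neither the kind of knockout allele nor whether replicates were separate animals or pools, so p-values measure the spread between these arrays, which may be technical.

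IGF1 and IGF2 are secreted peptides that act mainly through the IGF1 receptor, a tyrosine kinase that signals through insulin receptor substrates, PI3 kinase and AKT. The related insulin receptor binds insulin and, in one splice form, IGF2. Binding proteins hold the ligands in tissue and serum, and proteases such as pregnancy-associated plasma protein A release them by cutting the binding proteins. In rodent ovaries Igf1 is known as a product of granulosa cells of growing follicles, and follicles of mice without it stop before the antral stage.

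Probes above background made up 45.2% to 52.6% of an array, and arrays of a group correlated at 0.968 to 0.991. The number of arrays limits the precision. Sohlh1 KO 1 and 2 shared chip 1 with all 4 wild-type arrays, and Sohlh1 KO 3 and 4 shared chip 2 with all 3 Sohlh2 KO arrays. Sohlh1 KO and wild type could therefore be compared within chip 1, but Sohlh2 KO and wild type lay on different chips and were tied only through Sohlh1 KO. As a check of the labels, the brighter Sohlh1 probe was at 8.43, 8.48, 8.83 and 9.04 in Sohlh1 KO and at 8.58, 8.78 and 8.75 in Sohlh2 KO, against 11.23, 11.13, 11.23 and 11.47 in wild type. The Sohlh2 probe was at 6.35, 5.65, 5.45 and 5.38 in Sohlh1 KO and at 4.66, 4.76 and 4.68 in Sohlh2 KO, against 4.99, 5.06, 4.83 and 5.17 in wild type. Sohlh1 thus sets both knockouts apart from wild type. It does not separate them from each other (Sohlh1 KO minus Sohlh2 KO was -0.01), and its probe was above background on all 11 arrays. The faint Sohlh2 probe was above background on 4 of 4 Sohlh1 KO, 0 of 3 Sohlh2 KO and 3 of 4 wild-type arrays. Its Sohlh1 KO values all lay above the Sohlh2 KO values, by 1.01 on average (adjusted p = 0.0932 by limma, above the 0.05 used here). The Sohlh1 KO values also lay above the wild-type values, by 0.70 on average (adjusted p = 0.0127 by limma). The Sohlh2 probe is thus a weak check of the knockouts against each other, and it barely checks Sohlh2 KO against wild type. Whether these probes lie in the deleted parts is not given in the sources used here. Values here and below are normalized log2 intensities, listed by replicate number in the order of their groups. The Sohlh2 KO arrays are numbered 2, 3 and 4 in the sample titles, and there is no Sohlh2 KO 1. Only the titles of wild type 2 and 3 end in the suffix b, which the sources used here do not explain. An alternative fit below therefore leaves out both of these arrays. Whether they differed in kind from wild type 1 and 4 was not tested. A difference is a knockout mean minus the wild-type mean on that scale, and it was called at an adjusted p under 0.05 (limma, Benjamini-Hochberg over all 24451 probes tested). Where a gene had several probes, the one with the highest mean represents it and is called the brightest.

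The binding protein genes split between higher, lower and not called, and the ligand and the receptors gave no call. Read by the brightest probe, Igfbp2 and Igfbp3 rose and Igfbp6 and Igfbp7 fell in Sohlh1 KO, which is 4 of 9 genes, while 31.3% of all 13350 genes were called in that comparison. In Sohlh2 KO, Igfbp2 and Igfbp4 rose and Igfbp6 and Igfbp7 fell, again 4 of 9, beside 24.2% of all genes. By direction the shares of all genes were 15.4% higher and 15.9% lower in Sohlh1 KO and 11.7% higher and 12.5% lower in Sohlh2 KO. Counted by probe, 5 of 17 rose and 2 fell in each knockout, so 7 of 17 were called. Of all probes, 29.2% were called in Sohlh1 KO (15.3% higher, 14.0% lower) and 22.8% in Sohlh2 KO (11.7% higher, 11.1% lower). On the brightest probes, the arrays did not overlap with wild type for 5 of 9 genes in Sohlh1 KO and 6 of 9 in Sohlh2 KO. The shares of all genes were 31.0% and 43.4%. The median difference of the 9 genes was -0.05 in both comparisons, and that of all probes was 0.05. Both comparisons use the same wild-type arrays, so they are not independent. In RNA of whole ovaries, fewer cells of a type and less RNA per cell cannot be told apart.

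**Figure D1:**
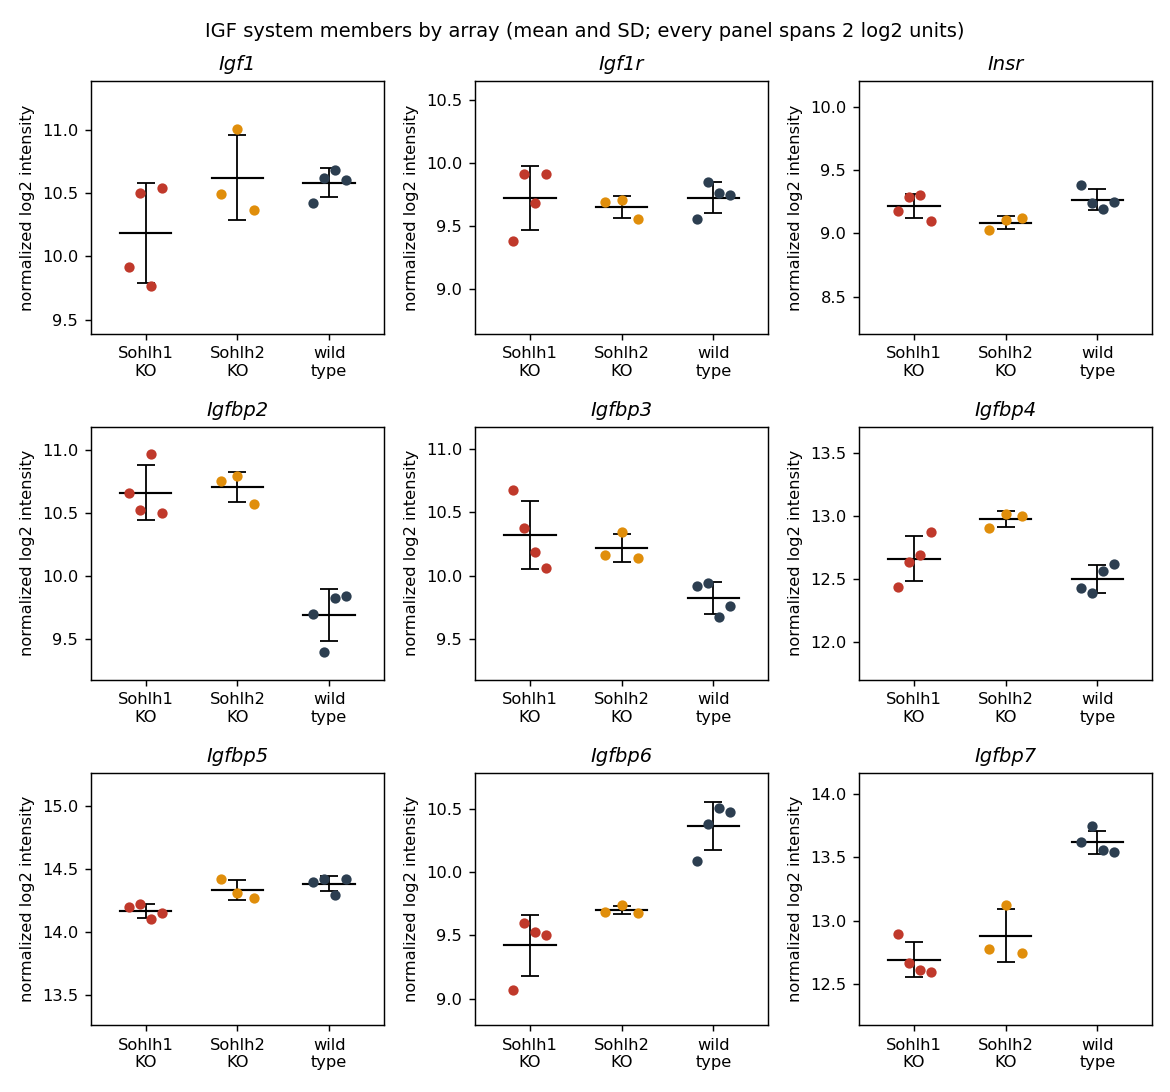
Normalized log2 intensity of the brightest probe of each gene (vertical axis, every panel spanning the same range) on each array of Sohlh1 KO, Sohlh2 KO and wild type, with the mean and SD. Both knockouts lie wholly above wild type for Igfbp2 and Igfbp3 and wholly below it for Igfbp6 and Igfbp7, while the groups overlap for Igf1 and Igf1r.

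Igf1, the ligand, was at 9.92, 10.50, 9.77 and 10.54 in Sohlh1 KO and at 10.50, 11.01 and 10.37 in Sohlh2 KO, against 10.42, 10.62, 10.69 and 10.60 in wild type. The groups overlapped, and Sohlh1 KO 1 and 3 were the lowest of the 11 arrays. The difference was -0.40 in Sohlh1 KO (95% confidence interval -0.82 to 0.02, adjusted p = 0.143 by limma) and 0.04 in Sohlh2 KO (-0.41 to 0.49, adjusted p = 0.919). The second Igf1 probe gave -0.22 and 0.14, neither called. A chip block left the brightest probe at -0.37 and 0.10.

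Igf1r, the receptor through which both IGFs signal, was at 9.38, 9.91, 9.68 and 9.91 in Sohlh1 KO and at 9.69, 9.71 and 9.55 in Sohlh2 KO, against 9.55, 9.85, 9.76 and 9.74 in wild type. The groups overlapped, and Sohlh1 KO 1 was the lowest of the 11 arrays. In Sohlh1 KO its difference had an interval of -0.30 to 0.30 (adjusted p = 0.989 by limma), and in Sohlh2 KO it was -0.08 with an interval of -0.40 to 0.25 (adjusted p = 0.768). These intervals are of this probe in this fit only. Its 2 dimmer tested probes gave differences of 0.25 and -0.27 in Sohlh1 KO and of 0.43 and 0.05 in Sohlh2 KO, and none of these passed. On the first of them the Sohlh2 KO arrays (7.62, 7.40 and 7.33) all lay above the wild-type arrays (7.31, 6.85, 6.95 and 6.99), with an adjusted p = 0.163 by limma. A further Igf1r probe was not well above background on any array.

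Insr, the insulin receptor, was at 9.18, 9.29, 9.31 and 9.10 in Sohlh1 KO and at 9.03, 9.11 and 9.12 in Sohlh2 KO, against 9.39, 9.24, 9.19 and 9.25 in wild type. The Sohlh2 KO arrays all lay below the wild-type arrays by a small margin. The difference was -0.05 in Sohlh1 KO (interval -0.29 to 0.19, adjusted p = 0.778 by limma) and -0.18 in Sohlh2 KO (-0.44 to 0.07, adjusted p = 0.302). Its other 2 probes did not pass the background filter. One of them was above background on 1 array, in wild type, and the other on 0 arrays.

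Igfbp2, a binding protein abundant in fetal tissues, rose in both knockouts. Its brightest probe was at 10.66, 10.52, 10.97 and 10.50 in Sohlh1 KO and at 10.75, 10.80 and 10.57 in Sohlh2 KO, against 9.70, 9.40, 9.82 and 9.84 in wild type. Every knockout array was above every wild-type array, and the knockouts overlapped each other. The rise was 1.96-fold in Sohlh1 KO (difference 0.97, SE 0.15, adjusted p = 0.000218 by limma). For Sohlh2 KO it was 2.02-fold (1.02, SE 0.16, adjusted p = 0.00037). The second probe gave larger values, 1.37 and 1.48, both called, with 9.25, 9.51, 10.31 and 10.15 in Sohlh1 KO, 9.90, 9.999 and 9.85 in Sohlh2 KO, and 8.47, 8.22, 8.38 and 8.67 in wild type. On that probe Sohlh1 KO 1 and 2, on chip 1, were lower than Sohlh1 KO 3 and 4, on chip 2. Within chip 1 the difference of Sohlh1 KO from wild type was 0.90 on the brightest probe (adjusted p = 0.00736 by limma) and 0.95 on the second (adjusted p = 0.00569). When chip was a block, the Sohlh2 KO differences were 0.88 (SE 0.26, adjusted p = 0.0528) and 0.63 (SE 0.23, adjusted p = 0.111), so that the Sohlh2 KO call ended on both probes.

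Igfbp3, the main serum carrier of the IGFs, was read differently by its 2 probes. The brightest was at 10.68, 10.37, 10.18 and 10.06 in Sohlh1 KO and at 10.17, 10.34 and 10.14 in Sohlh2 KO, against 9.92, 9.94, 9.68 and 9.76 in wild type. All knockout arrays lay above the wild-type arrays, by little in Sohlh1 KO 4. The difference was 0.50 in Sohlh1 KO (SE 0.15, adjusted p = 0.0196 by limma) and 0.39 in Sohlh2 KO (SE 0.16, adjusted p = 0.0916), called only in the first. The second probe was at 9.17, 9.40, 9.11 and 9.52 in Sohlh1 KO and at 9.20, 9.74 and 9.23 in Sohlh2 KO, against 7.99, 8.39, 8.02 and 8.32 in wild type. On it the groups were well apart, and Igfbp3 rose 2.18-fold in Sohlh1 KO (1.12, SE 0.16, adjusted p = 0.000148). It also rose 2.31-fold in the Sohlh2 KO arrays (1.21, SE 0.17, adjusted p = 0.000192). Within chip 1 Sohlh1 KO differed from wild type by 0.70 on the brightest probe (adjusted p = 0.0193) and 1.11 on the second (adjusted p = 0.00251). The chip block gave Sohlh2 KO differences of 0.79 (adjusted p = 0.039) and 1.18 (adjusted p = 0.0232), both called. The Sohlh1 KO call of the brightest probe was lost without wild type 3 (0.45, adjusted p = 0.0591) and without wild type 4 (0.48, adjusted p = 0.0505). It was also lost without wild type 2 and 3 together (0.48, adjusted p = 0.119), while that of the second probe passed under all 25 alternatives run.

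**Figure D2:**
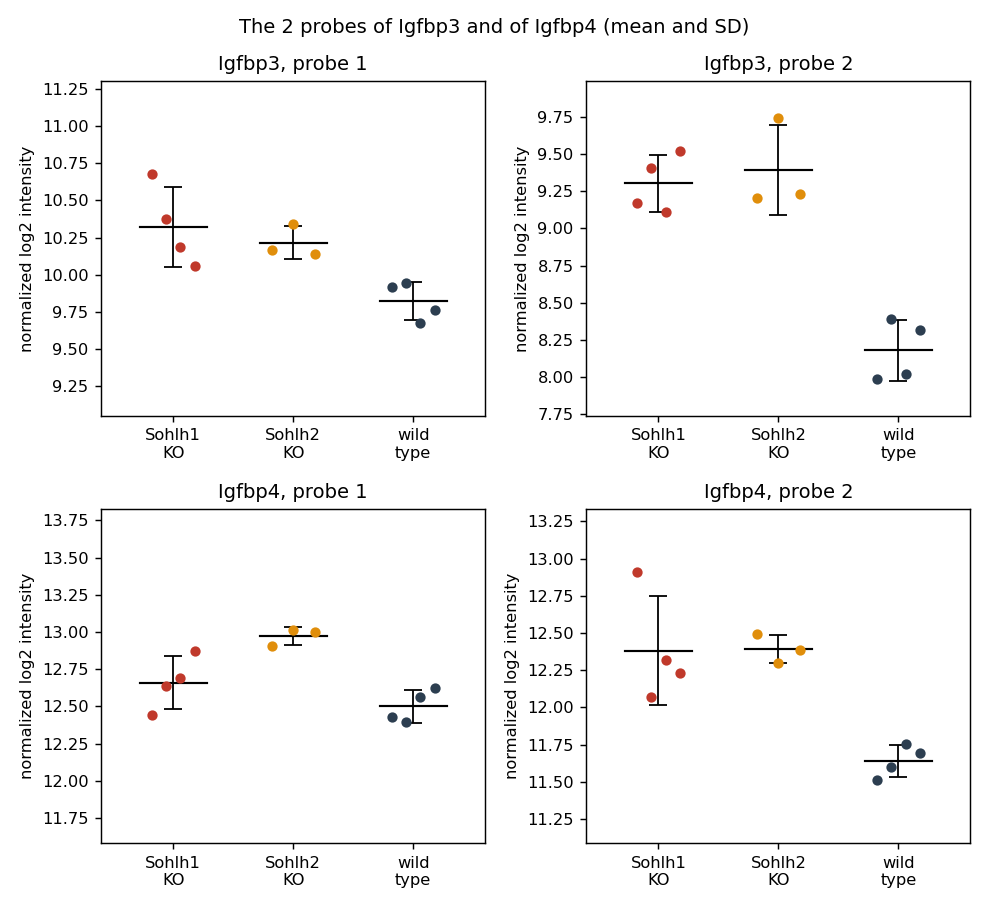
Normalized log2 intensity (vertical axis) of both probes of Igfbp3 and of Igfbp4 on each array of Sohlh1 KO, Sohlh2 KO and wild type, with the mean and SD. Probe 1 is the brightest. The second probe of each gene shows the wider gap between the knockouts and wild type, for Igfbp4 most plainly in Sohlh1 KO.

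Igfbp4, the binding protein that pregnancy-associated plasma protein A cuts, also depended on the probe. Its brightest probe was at 12.44, 12.64, 12.69 and 12.87 in Sohlh1 KO and at 12.90, 13.02 and 13.002 in Sohlh2 KO, against 12.43, 12.39, 12.56 and 12.62 in wild type. Sohlh1 KO overlapped wild type, and the Sohlh2 KO arrays lay above all others. It was called in Sohlh2 KO (0.47, SE 0.13, adjusted p = 0.0216 by limma) and gave a difference of 0.16 in Sohlh1 KO (SE 0.12, adjusted p = 0.374). On the second probe the values were 12.91, 12.07, 12.32 and 12.23 in Sohlh1 KO and 12.49, 12.30 and 12.38 in Sohlh2 KO, against 11.51, 11.60, 11.76 and 11.69 in wild type. There Igfbp4 rose 1.67-fold in Sohlh1 KO (0.74, SE 0.17, adjusted p = 0.00416), with no overlap. The rise in Sohlh2 KO was 1.68-fold (0.75, SE 0.18, adjusted p = 0.00799). Within chip 1 the Sohlh1 KO difference was 0.04 on the brightest probe and 0.85 on the second (adjusted p = 0.0288). Blocking on chip put the Sohlh2 KO difference at 0.23 on the brightest probe (adjusted p = 0.546) and at 0.96 on the second (adjusted p = 0.0565), neither called. The call of the brightest probe in Sohlh2 KO was also lost without wild type 1 (0.45, adjusted p = 0.0543), wild type 2 (0.44, adjusted p = 0.0652), Sohlh2 KO 3 (0.45, adjusted p = 0.0758) or Sohlh2 KO 4 (0.46, adjusted p = 0.0743), and without wild type 2 and 3 together (0.45, adjusted p = 0.134). That of the second probe in Sohlh2 KO was lost without wild type 2 and 3 (0.79, adjusted p = 0.051). Both probes carry the same RefSeq transcript accession in the annotation, and why they differ was not tested.

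Igfbp5, a binding protein that also attaches to extracellular matrix, was read by 3 bright probes, and none gave a call. The brightest was at 14.20, 14.22, 14.10 and 14.15 in Sohlh1 KO and at 14.42, 14.31 and 14.27 in Sohlh2 KO, against 14.40, 14.42, 14.30 and 14.42 in wild type. The Sohlh1 KO arrays all lay below the wild-type arrays, by a margin smaller than in Igfbp6 or Igfbp7. Its difference was -0.22 in Sohlh1 KO (interval -0.45 to 0.01, adjusted p = 0.151 by limma) and -0.05 in Sohlh2 KO (-0.30 to 0.20, adjusted p = 0.804). On the log2 of the deposited values, with neither background correction nor further normalization, the same Sohlh1 KO difference passed (-0.22, adjusted p = 0.0176 by limma). That setting called 5 members in Sohlh1 KO. The other probes gave -0.08 and 0.10 in Sohlh1 KO and -0.07 and 0.20 in Sohlh2 KO. The mean deposited intensity of the brightest probe was 18538 in Sohlh1 KO, 20812 in Sohlh2 KO and 21521 in wild type, and the highest value of any probe in the table was 33822.

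Igfbp6, a binding protein that prefers IGF2, fell in both knockouts. Its single probe was at 9.06, 9.59, 9.53 and 9.50 in Sohlh1 KO and at 9.68, 9.74 and 9.68 in Sohlh2 KO, against 10.09, 10.38, 10.51 and 10.48 in wild type. All knockout arrays were below all wild-type arrays. The fall was 1.92-fold in Sohlh1 KO (-0.94, SE 0.15, adjusted p = 0.000265 by limma). For Sohlh2 KO it was 1.59-fold (-0.67, SE 0.16, adjusted p = 0.00762). Within chip 1 the Sohlh1 KO difference was -1.03 (adjusted p = 0.00662). Under the chip block that of Sohlh2 KO was -0.85 (SE 0.25, adjusted p = 0.0533), which is larger but no longer called, and without wild type 2 and 3 it was -0.59 (adjusted p = 0.0907).

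Igfbp7, also named Mac25 and a low-affinity IGF binder found in matrix and vessel walls, fell in both knockouts as well. The 1 probe that detected it was at 12.89, 12.67, 12.61 and 12.59 in Sohlh1 KO and at 12.77, 13.13 and 12.75 in Sohlh2 KO, against 13.63, 13.75, 13.56 and 13.54 in wild type. The groups were apart, with Sohlh2 KO 3 the nearest knockout array to wild type. The fall was 1.90-fold in Sohlh1 KO (-0.93, SE 0.13, adjusted p = 0.000108 by limma). For Sohlh2 KO it was 1.67-fold (-0.74, SE 0.14, adjusted p = 0.00174). Within chip 1 the Sohlh1 KO difference was -0.84 (adjusted p = 0.00572). Under the chip block Sohlh2 KO differed by -0.56 (SE 0.22, adjusted p = 0.144), and its call ended. The other 4 of the 5 Igfbp7 probes, annotated with the same transcript accession, were not well above background on any of the 11 arrays.

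**Figure D3:**
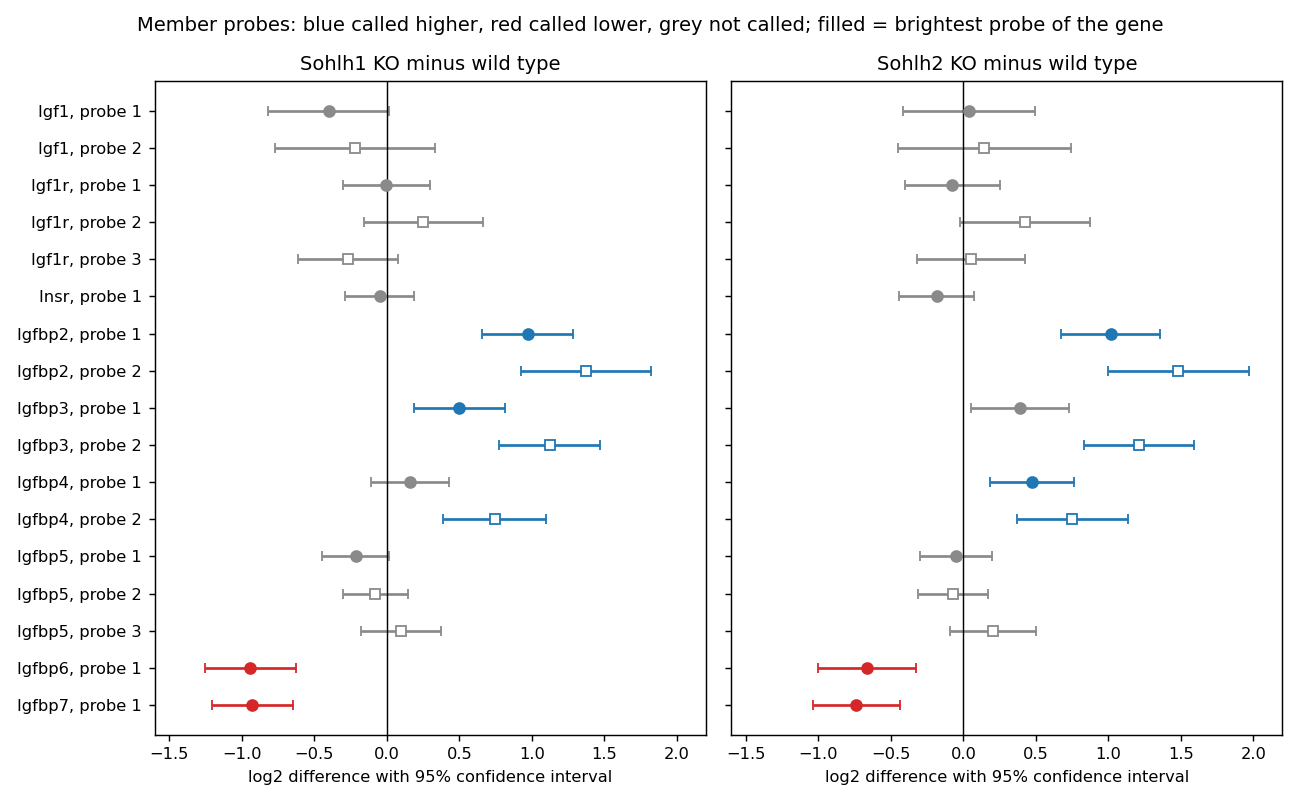
Log2 difference from wild type with its 95% confidence interval (horizontal axis) for the 17 tested probes of the 9 genes, in Sohlh1 KO (left) and Sohlh2 KO (right). Filled circles mark the brightest probe of a gene and open squares the others, blue called higher, red called lower and grey not called. In each knockout 5 probes, all of Igfbp2, Igfbp3 or Igfbp4, were called higher and 2, of Igfbp6 and Igfbp7, lower.

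**Figure D4:**
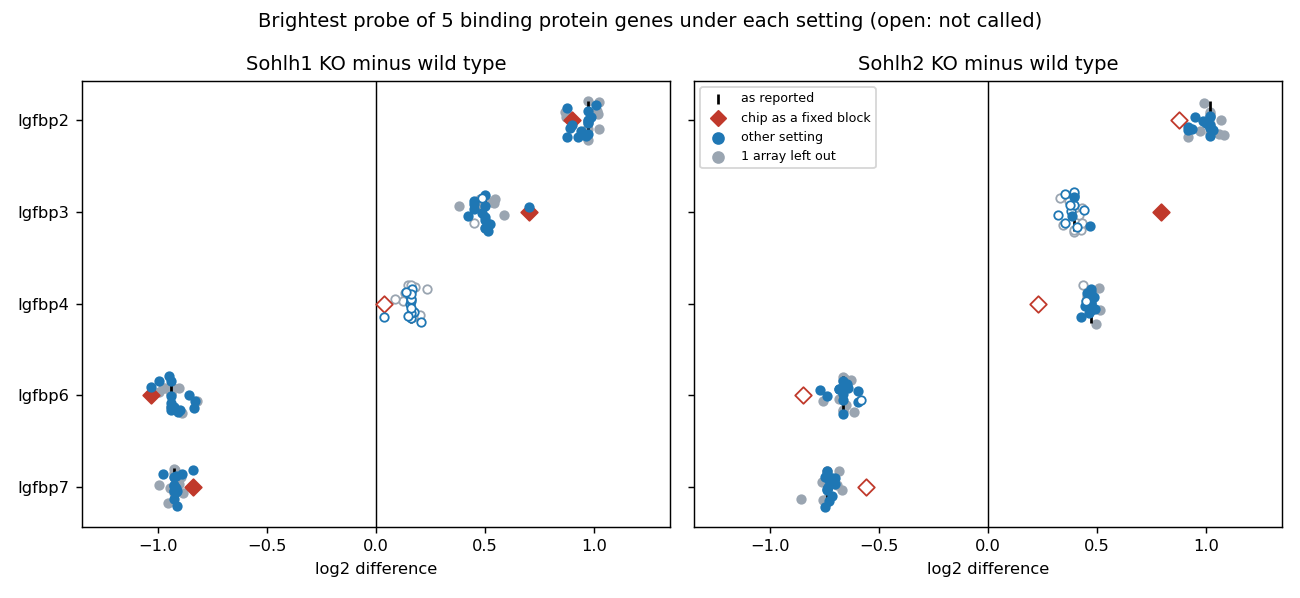
Log2 difference from wild type (horizontal axis) of the brightest probe of 5 binding protein genes as reported (black tick) and under each alternative, in Sohlh1 KO (left) and Sohlh2 KO (right), with open symbols where the call was not made. The red diamonds, chip as a block, are open in Sohlh2 KO for Igfbp2, Igfbp4, Igfbp6 and Igfbp7 and filled for Igfbp3, whose difference there is 0.79.

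The knockouts were also compared directly. No member was called in Sohlh1 KO against Sohlh2 KO (0 of 9, with 1 of 9 at an unadjusted p under 0.05), and 0.0599% of all genes and 0.0532% of all probes were. That 1 gene was Igfbp4, with a difference of -0.31 on its brightest probe (interval -0.60 to -0.02, adjusted p = 0.542 by limma) and of -0.01 on the second. Igf1 differed by -0.44 (interval -0.89 to 0.01), Igfbp6 by -0.28 (-0.61 to 0.06) and Igfbp7 by -0.19 (-0.49 to 0.11). For Igfbp2 the interval was -0.39 to 0.30 and for Igfbp3 -0.23 to 0.45 on the brightest probes. On the brightest probes the arrays of the knockouts did not overlap for Igfbp4, Igfbp5 and Igfbp6, which is 3 of 9 genes beside 7.61% of all genes. They did overlap on the second Igfbp4 probe and on the other Igfbp5 probes, and Igfbp6 had a single probe. Differences inside these intervals are not resolved by 4 against 3 arrays.

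For the 3 genes called in both knockouts by their brightest probe, the 250 bases before the annotated gene start are shown, since basic helix-loop-helix factors as a class bind the motif CANNTG, the E-box. Capitals mark CANNTG, which reads the same on both strands. The sequences are RefSeq's on build GRCm38.p6, 5′ to 3′ on the strand of the gene: Igfbp2 at chr1:72824230-72824479 (plus strand), Igfbp6 at chr15:102143936-102144185 (plus strand) and Igfbp7 at chr5:77408046-77408295 (minus strand).
Igfbp2: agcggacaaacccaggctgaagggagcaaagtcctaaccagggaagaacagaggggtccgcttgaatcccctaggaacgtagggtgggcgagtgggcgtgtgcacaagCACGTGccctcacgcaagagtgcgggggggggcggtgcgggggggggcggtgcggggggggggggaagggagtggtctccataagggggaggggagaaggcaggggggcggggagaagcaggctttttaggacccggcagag
Igfbp6: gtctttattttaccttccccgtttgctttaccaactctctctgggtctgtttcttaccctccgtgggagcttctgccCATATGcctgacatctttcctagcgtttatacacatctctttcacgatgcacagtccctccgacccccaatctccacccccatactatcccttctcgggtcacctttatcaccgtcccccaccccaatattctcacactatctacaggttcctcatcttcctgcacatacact
Igfbp7: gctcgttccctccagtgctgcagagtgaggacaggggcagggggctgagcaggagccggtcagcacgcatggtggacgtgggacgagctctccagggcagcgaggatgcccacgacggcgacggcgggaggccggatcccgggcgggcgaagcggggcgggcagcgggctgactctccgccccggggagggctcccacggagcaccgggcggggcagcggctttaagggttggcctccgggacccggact
The Igfbp2 window held 1 match, CACGTG, starting at position -142 from the gene start. The Igfbp6 window held 1 match, CATATG, starting at -173, and the Igfbp7 window held 0. Of the 32851 mouse promoter windows of this length, 66.2% held at least 1 CANNTG. A window was available for 8 of the 9 genes, all but Insr. GC content was 67.2% for Igfbp2, 49.6% for Igfbp6 and 74.0% for Igfbp7. A match is a description of the letters and says nothing of binding.

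The genes whose levels ran most like these 3 over the 11 arrays were picked by Pearson's r among the 13349 other genes, as a description in which all points share the arrays and the step between groups. Those nearest Igfbp2 were Vasn (r = 0.98), the thrombin receptor gene F2r (0.97) and the heparan sulfate sulfatase gene Sulf1 (0.97). Sulf1 had differences of 0.79 in Sohlh1 KO and 0.83 in Sohlh2 KO, so the likeness is in pattern and direction. Nearest Igfbp6 were the intraflagellar transport gene Ift43 (0.97), the growth factor gene Pdgfa (0.97) and Elof1 (0.97), whose differences were all below 0. Nearest Igfbp7 were Pgbd5 (0.98), Casc1 (0.97) and Ppp1r14c (0.97), and these had larger differences than Igfbp7, for example -2.29 and -2.17 for Ppp1r14c in Sohlh1 KO and Sohlh2 KO.

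Other genes of the pathway were read from 3 lists, 1 probe a gene, also chosen with earlier results of these data known. Of 47 genes tested, 20 were called in Sohlh1 KO and 19 in Sohlh2 KO, beside 31.3% and 24.2% of all genes. A chip block left 18 called in Sohlh1 KO and 10 in Sohlh2 KO. Calls also fell over all 24451 probes tested, from 7144 to 5681 in Sohlh1 KO and from 5572 to 2515 in Sohlh2 KO.

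Among other ligands, receptors and carriers, 3 of 5 tested genes rose and 1 fell in each knockout (median difference 0.65 in Sohlh1 KO and 0.77 in Sohlh2 KO). Of all genes, 15.4% rose and 15.9% fell in Sohlh1 KO, and 11.7% rose and 12.5% fell in Sohlh2 KO. Igf2, the fetal ligand, was at 15.00, 14.87, 14.85 and 14.73 in Sohlh1 KO and at 14.82, 14.88 and 14.91 in Sohlh2 KO, against 13.73, 13.76, 14.05 and 14.29 in wild type. It rose 1.87-fold in Sohlh1 KO (0.90, adjusted p = 0.000288 by limma) and 1.88-fold in Sohlh2 KO (0.91, adjusted p = 0.000637), with mean deposited intensities of 29935 in Sohlh1 KO and 30094 in Sohlh2 KO, against 16256 in wild type. Igf2 stayed called with chip as a block. The highest value of any probe in the table was 33822, and whether such a top limited the knockout values was not tested. Igf2r, which removes IGF2 from the cell surface, rose by 0.65 in Sohlh1 KO and 0.77 in Sohlh2 KO. Blocking on chip gave 0.54 (adjusted p = 0.0741) and 0.56 (adjusted p = 0.277), neither called. Ins2, an insulin gene with a faint probe, was above background on 4 of 4 Sohlh1 KO, 3 of 3 Sohlh2 KO and 1 of 4 wild-type arrays, and rose by 1.10 and 1.25. The blocked Sohlh2 KO value was 0.75 and no longer called (adjusted p = 0.183). Igfals, which encodes the acid-labile subunit that joins IGFBP3 and IGF in serum, was above background on 1 of 4 Sohlh1 KO and 4 of 4 wild-type arrays. It fell in Sohlh1 KO, with a fitted difference of -1.38 (adjusted p = 0.000223 by limma) whose size rests mostly on values at background. In Sohlh2 KO it was not well above background on any array and was at least 2.24-fold lower (adjusted p = 0.000391). The growth hormone receptor gene Ghr gave 0.20 and 0.23, neither called.

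**Figure D5:**
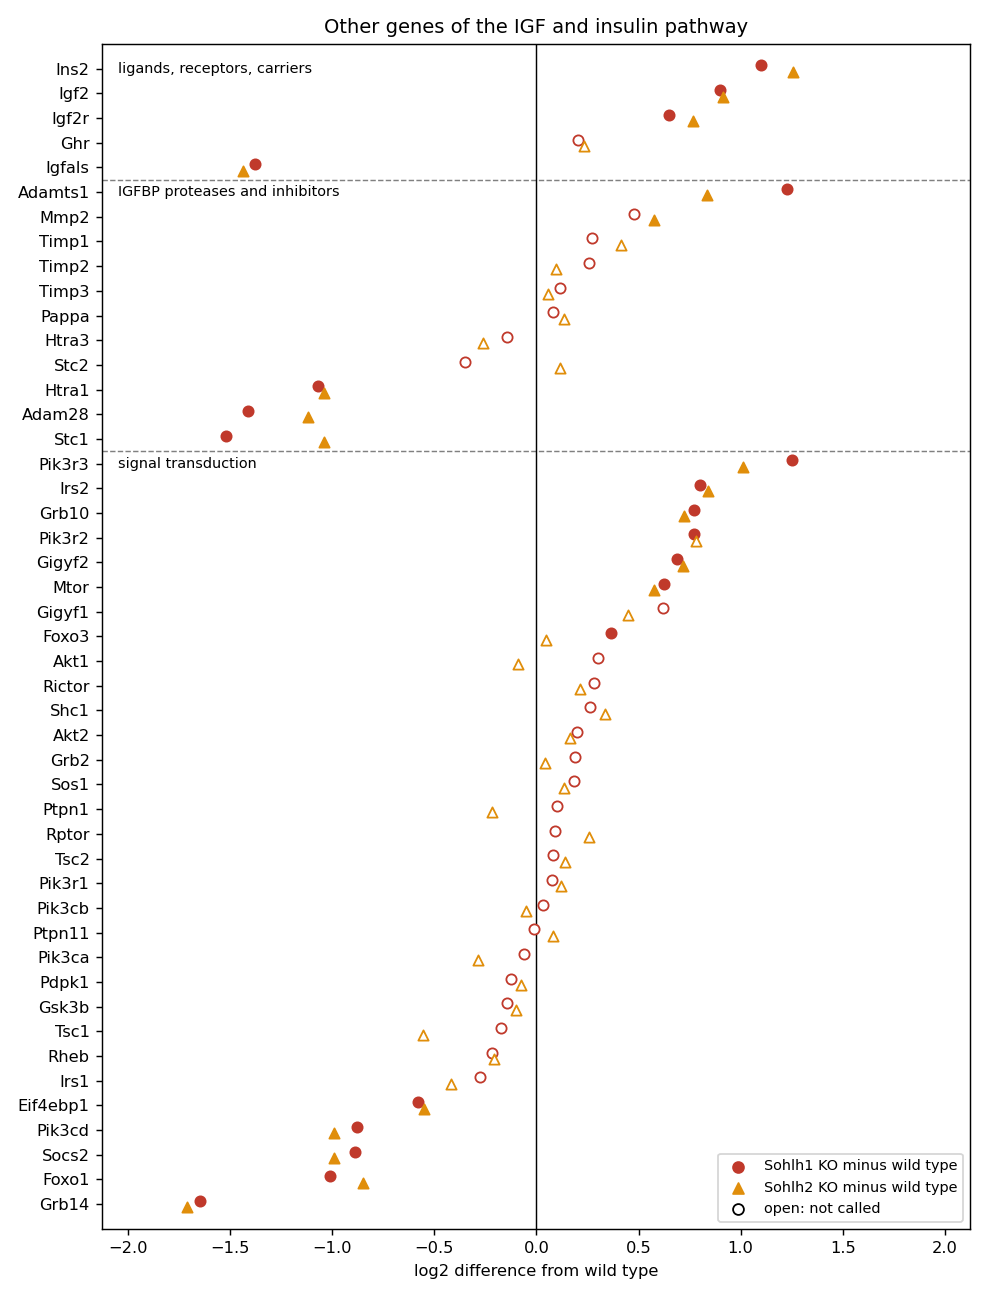
Log2 difference from wild type (horizontal axis) for 47 other genes of the IGF and insulin pathway in Sohlh1 KO (circles) and Sohlh2 KO (triangles), filled where called. Of the signal transduction genes 19 in Sohlh1 KO and 21 in Sohlh2 KO were not called, and Grb14 is lowest and Pik3r3 highest of that list in both knockouts.

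Proteases that cut binding proteins, and their inhibitors, made up the second list. Beside it, 15.4% of all genes rose and 15.9% fell in Sohlh1 KO, and 11.7% rose and 12.5% fell in Sohlh2 KO. Of 11 tested, 1 rose and 3 fell in Sohlh1 KO and 2 rose and 3 fell in Sohlh2 KO (medians 0.08 and 0.10). Stc1 encodes stanniocalcin-1, which inhibits pregnancy-associated plasma protein A in work with human proteins. It was at 9.64, 10.13, 9.79 and 9.77 in Sohlh1 KO and at 10.12, 10.42 and 10.40 in Sohlh2 KO, against 11.38, 11.46, 11.43 and 11.15 in wild type. It fell 2.87-fold in Sohlh1 KO (-1.52, adjusted p = 2.05e-06 by limma) and 2.06-fold in Sohlh2 KO (-1.04, adjusted p = 0.000201). Htra1, a serine protease of binding proteins and matrix, fell 2.10-fold and 2.06-fold (adjusted p = 5.61e-06 and 1.97e-05), with 9.56, 9.51, 9.64 and 9.59 in Sohlh1 KO, 9.53, 9.69 and 9.59 in Sohlh2 KO and 10.61, 10.74, 10.69 and 10.55 in wild type. Both stayed called with chip as a block. The faint metalloprotease gene Adam28 fell by 1.41 and 1.12, in Sohlh2 KO no longer called with chip as a block (-0.80, adjusted p = 0.151). Its probe was above background on 1 of 4 Sohlh1 KO, 1 of 3 Sohlh2 KO and 4 of 4 wild-type arrays. These sizes therefore rest mostly on values at background. Adamts1, a metalloprotease of matrix, rose by 1.23 in Sohlh1 KO and 0.83 in Sohlh2 KO, and with chip as a block by 1.55 and 1.49. Pappa, which encodes pregnancy-associated plasma protein A itself, gave 0.08 and 0.13, neither called.

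Of 31 tested genes of signal transduction, 7 rose and 5 fell in Sohlh1 KO and 5 rose and 5 fell in Sohlh2 KO (medians 0.09 and 0.05). The shares of all genes were 15.4% higher and 15.9% lower in Sohlh1 KO and 11.7% higher and 12.5% lower in Sohlh2 KO. Pik3r3, a regulatory subunit of PI3 kinase, rose 2.38-fold in Sohlh1 KO (adjusted p = 5.64e-06 by limma) and 2.01-fold in Sohlh2 KO (adjusted p = 0.000118). Its levels were 11.07, 10.66, 10.66 and 10.79 in Sohlh1 KO and 10.55, 10.51 and 10.61 in Sohlh2 KO, against 9.62, 9.42, 9.47 and 9.67 in wild type. Grb14, an adaptor that restrains the insulin receptor, fell 3.13-fold (adjusted p = 1.06e-05) and 3.27-fold (adjusted p = 1.96e-05). It was at 8.15, 7.53, 7.36 and 7.24 in Sohlh1 KO and at 7.68, 7.40 and 7.44 in Sohlh2 KO, against 9.37, 9.17, 9.24 and 9.10 in wild type. Foxo1, a transcription factor that AKT inactivates, fell by 1.01 in Sohlh1 KO and 0.85 in Sohlh2 KO. The blocked Foxo1 difference in Sohlh2 KO was -0.68 (adjusted p = 0.0618). Socs2, a feedback inhibitor of growth hormone signalling, fell by 0.89 and 0.99.

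Markers of several cell types moved in the same comparisons, and their part in the IGF values was not tested. For the counts that follow, 31.3% of all genes were called in Sohlh1 KO and 24.2% in Sohlh2 KO. Of 10 oocyte markers, 7 fell in Sohlh1 KO and 9 in Sohlh2 KO, with summed linear levels of 1916 to 2925 in Sohlh1 KO, 1610 to 2008 in Sohlh2 KO and 23595 to 28089 in wild type. The oocyte genes Oosp1 and Npm2 were not well above background on any Sohlh1 KO array, and Zp2 on any Sohlh2 KO array. Of 14 pregranulosa and granulosa markers, 3 rose and 7 fell in each knockout, with sums of 5834 to 6666 in Sohlh1 KO, 6199 to 6836 in Sohlh2 KO and 14307 to 18210 in wild type. In each knockout the 3 that rose were Lgr5, Rspo1 and Wnt4. Their differences, in that order, were 1.40, 0.73 and 0.48 in Sohlh1 KO and 1.59, 0.92 and 0.56 in Sohlh2 KO. Amh was not well above background on any knockout array, and Fshr on any Sohlh1 KO array. Of 10 multiciliated cell markers 9 fell in each knockout, with sums of 773 to 1057 in Sohlh1 KO, 818 to 910 in Sohlh2 KO and 20935 to 27236 in wild type. Fam183b, Sec14l3 and Dnah5 were not well above background on any knockout array, nor Ccdc39 and Mcidas on any Sohlh2 KO array.

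Smooth muscle, vessel wall and stromal lists were read beside Igfbp7 and the other bright binding protein genes. Of 9 smooth muscle and pericyte markers, 1 rose and 5 fell in Sohlh1 KO and 0 rose and 4 fell in Sohlh2 KO. Their sums were 14737 to 21057 in Sohlh1 KO, 23194 to 26658 in Sohlh2 KO and 37031 to 39128 in wild type, and all 9 were detected in every group. Of 10 stromal fibroblast markers 1 rose and 1 fell in Sohlh1 KO and 0 rose and 1 fell in Sohlh2 KO, with sums of 45812 to 59618 in Sohlh1 KO, 46681 to 51294 in Sohlh2 KO and 49290 to 55757 in wild type. Of 9 endothelial markers 3 rose and 1 fell in Sohlh1 KO and 1 rose and 1 fell in Sohlh2 KO, with sums of 8217 to 9947 in Sohlh1 KO, 8232 to 9857 in Sohlh2 KO and 9595 to 10868 in wild type. The remaining lists were germ cell (5 of 6 higher and 1 lower in Sohlh1 KO, 4 and 1 in Sohlh2 KO), steroidogenic and theca (0 of 7 higher and 6 lower in each) and surface and ductal epithelium (2 of 9 higher and 3 lower, then 4 and 3). Blood and fat lists were macrophage and leukocyte (3 of 8 higher and 1 lower, then 1 and 1), red blood cell (4 of 4 higher, then 2), granulocyte (7 of 8 higher and 0 lower, then 3 and 1) and adipocyte (1 of 6 higher and 3 lower in each). The granulocyte sums were 6884 to 44023 in Sohlh1 KO, 1578 to 11857 in Sohlh2 KO and 1198 to 2160 in wild type. Fabp4, an adipocyte marker, was not well above background on any knockout array.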

How the data were processed

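Newborn ovary RNA of 11 samples, 1 array each, was measured on BeadChips read with BeadStudio 3.2, per the submitters' processing notes. The deposited intensity table is linear, holds no detection p-values or control probes, and is not background-subtracted (lowest value 98.39). Values at the same rank differed between arrays by 11.16 units or less, so the authors' table had been quantile normalized, by a step not given in the sources used here, and a shift shared by most genes could not be seen. The deposited series matrix holds the log2 of the same values (within 0.005). Groups and replicate numbers come from the sample titles, and chips from the file header.

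Background was corrected with normexp (offset 16), using 1276 probes of olfactory receptor genes as negative controls, then quantile normalization and log2 followed. The design had assumed control probes, and it planned quantile normalization only for a table not already normalized. A probe was above background past the 95th percentile of those controls on its array (149 to 159 intensity units), and the 24451 probes that passed it on 3 or more arrays were tested. Of all probes 34885 had 1 symbol, 18 several and 10378 none. A model of 3 group means over the 11 arrays, which leaves 8 residual degrees of freedom, was fitted in limma 3.58.1 (statmod 1.5.0, R 4.3.3). The fit was also run on simulated data, and the outcome of that run is not given here. Members and gene lists were chosen with earlier results of these data known. Genes outside the 9 were named by rule: Igf2 and Igf2r, up to 4 called genes of each pathway list and comparison with the smallest adjusted p, and the 3 most alike genes of each member called in both knockouts. Others (Ghr, Pappa, the marker genes below background and the 3 raised pregranulosa and granulosa markers) were named after their values were seen. Where a group had no array above background, a fold is a bound against the lowest value above background on each array. Alternatives covered background correction, normalization, filters, blocks and left-out arrays. The one named as without background correction took the log2 of the deposited values, so it also left out the further quantile normalization.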

Additional observations from a re-analysis of the deposited data

Results flagged for a closer look

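One dim Igf1r probe was at 5.15 on wild type 2, while the other wild-type arrays lay between 5.48 and 5.54. The Ins2 probe was at 5.09 on wild type 4, while the other wild-type arrays lay between 4.63 and 4.70. In each case 1 array stood far from the rest of its group by Dixon's criterion, which chance passes in about 1 of 20 groups, and 58 groups were examined.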

How the results depend on the processing

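Limits come first. Sohlh2 KO and wild type share no chip, so chip and genotype can be separated there only through the 4 Sohlh1 KO arrays. Dimmer probes were followed under the alternatives only where called, and reading the second probe of each gene was chosen after seeing the data. It called 5 members in each knockout. Faint probes near background have little room to show a fall.

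In Sohlh1 KO, Igfbp2, Igfbp6 and Igfbp7 kept their direction and call under all 26 alternatives. Several of these cannot change the difference itself: leaving out a Sohlh2 KO array, changing the probe filter or fitting only the groups compared. Others repeat each other, such as chip 1 alone and the chip block, so the count is not one of independent checks. The same limit holds for the 25 alternatives of the second Igfbp3 probe. The probes called numbered 7144, or 4366 with 1 probe per gene and 3867 without wild type 2 and 3. Leaving out 1 array at a time gave 5535 to 7741 probes, 3 to 4 members and 17 to 21 other pathway genes.

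In Sohlh2 KO, 5572 probes were called, or 3405 with 1 probe per gene, 2884 without wild type 2 and 3, 8777 with array weights and 2515 with chip as a block. With the chip block the 4 member calls ended, 1 other member (Igfbp3) was called, and 10 other pathway genes were called. Without wild type 2 and 3, 2 members were called. Without 1 array at a time the counts were 3978 to 6844 probes, 3 to 5 members and 14 to 22 other pathway genes.

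Between the knockouts 13 probes were called. The count was 2 without background correction and 2 with the series matrix, 8 with offset 50, 7 without the filter, 5 with 1 probe per gene, 6 with the replicate block, 45 with the chip block, 3 with only the groups compared, 4 without wild type 2 and 3, and 57 with array weights. Leaving out 1 array gave 1 (without Sohlh1 KO 3, and likewise without Sohlh2 KO 4) to 96 (without Sohlh1 KO 1), and 0 members in all of these.

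Differences that changed sign were all uncalled. In Sohlh1 KO, Igf1r became 0.0108 with median scaling, 0.0732 without wild type 2 and 3 and 0.0277 with array weights, and ranged over -0.067 to 0.110 without 1 array. In Sohlh2 KO, Igf1 became -0.0256 with cyclic loess and -0.0314 with the replicate block, with -0.152 to 0.168 without 1 array. There Igf1r became 0.00146 without wild type 2 and 3 and Igfbp5 0.0361 with the chip block. Between the knockouts, the chip block and chip 2 alone gave 0.0248 for Igfbp2 and -0.0934 for Igfbp3, and leaving out 1 array gave -0.147 to 0.00966 and -0.00997 to 0.196. The cause of these moves was not tested.

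Replicate numbers showed no clear pairing of the samples, though 3 or 4 pairs cannot exclude one. Deviations of same-numbered arrays correlated at 0.063 to 0.124 for Sohlh1 KO with wild type. The values were -0.040 to 0.012 for Sohlh2 KO with wild type and -0.181 to -0.006 between the knockouts. For Sohlh1 KO with wild type, the best match had the same number for 2 of 4 arrays of 1 group and 1 of 4 of the other. In the other comparisons it was 0 of 3. With the replicate block 7063 probes, 4 members and 19 other pathway genes were called in Sohlh1 KO, and 5117, 5 (Igfbp3 added, 0.47, adjusted p = 0.0488) and 17 in Sohlh2 KO.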
